A study of Mus musculus with 8 samples.

Results

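The genes described here are the 40 that encode glucose and lactate transporters, the enzymes of glycolysis, of the pentose phosphate pathway and of the tricarboxylic acid (TCA) cycle, 2 regulators of these pathways and the itaconate-forming enzyme Irg1. Members were taken by gene name from the probe annotation in the scanner files. All 40 had a probe that passed the filter on dim signals, out of 15401 genes tested, and 67 of their 74 probes passed, out of 41174 probes on the array. None of the 40 had a missing value on any of the 8 arrays.

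The study used dendritic cells (DC), which present antigen to T cells, cultured from the bone marrow of male C57BL/6Jax mice that were wild type (WT) or lacked the microRNA miR-155 (KO). Bone marrow of both genotypes was cultured over 7 days in GM-CSF, a myeloid growth factor, at 40 ng/mL, and part of the floating cells then received 100 ng/mL of lipopolysaccharide (LPS, a bacterial cell wall component) for 16 h. The 4 groups were WT unstimulated, WT LPS, KO unstimulated and KO LPS, each with 2 arrays. Unstimulated cells were sorted as CD86- DC and stimulated cells as adherent CD86+ DC, so that every LPS difference is also one between sort gates, with adherent cells on the LPS side. Total RNA was hybridised to one-colour Agilent arrays. The labels describe the material as bone marrow cells in culture, and do not say whether the replicates came from separate animals or cultures. P-values here therefore measure only the spread between these samples, which may be technical. No probe name matched the microRNA, so the arrays gave no check of the knockout.

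Glycolysis splits glucose into pyruvate in the cytosol, the pentose phosphate pathway branches from it to make NADPH and ribose, and the TCA cycle oxidises acetyl groups in the mitochondrion. DC and macrophages that sense LPS are known to take up more glucose and release more lactate, to interrupt the TCA cycle after citrate and isocitrate, and to divert aconitate to itaconate through Irg1. Several steps are served by isozymes, separate genes for the same reaction that differ between tissues. The transcription factor HIF-1, whose oxygen-regulated subunit is Hif1a, is known to act on many glycolytic genes.

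Values are scaled log2 signals, the log2 processed signal minus the 75th percentile of its array, so that 0 is the level of the 75th percentile spot and 1 unit is a doubling. Levels can be compared between arrays for a gene but not between genes. Differences are log2 differences of these values with the standard error (SE) of the limma fit. Called genes had a Benjamini-Hochberg adjusted p below 0.05 over all genes of the comparison. Spots well above background made up 50.8% to 58.3% of an array, and array 75th percentiles ran from 474 to 750 intensity units. Principal component 1 (75.55% of the variance) parted LPS from unstimulated arrays, and component 2 (9.57%) parted arrays numbered 1 from those numbered 2. All 12 measured DC markers were well above background on every array. Of 10 macrophage markers 5 fell and 1 rose in each genotype, with summed levels of 223 to 310 times the 75th percentile on WT unstimulated arrays, 280 to 304 on WT LPS arrays, 227 to 295 on KO unstimulated arrays and 180 to 375 on KO LPS arrays. Of 4 measured stromal markers 3 rose in each genotype (Dcn, Lum and Pdgfrb), with summed levels of 0.0946 to 0.184 and 0.127 to 0.130 on the WT and KO unstimulated arrays, where at most 2 were well above background, and of 2.22 to 6.00 and 2.19 to 12.3 after LPS. Of 7 measured mast cell and basophil markers 4 fell and 2 rose in each genotype, and the sum, 0.977 to 3.58 before LPS, reached 6.09 to 116 after it through Hdc, which activated myeloid cells also make. Of 4 erythroid markers 1 rose in each genotype, with sums of 0.246 to 0.454 before LPS and 0.587 to 7.90 after it. The high sums came from Hbb-b1 on replicate 1 of the LPS groups (2.90 in WT and 2.58 in KO). On replicate 2 it read -3.57 and -2.22. Of 6 neutrophil markers 1 rose in each genotype and 1 fell in WT. Of 4 measured T cell markers 2 fell (Cd2 and Lat) and 1 rose (Lck) in each genotype, with sums of 0.229 to 0.368 over all arrays. Of 3 B cell markers Ighm fell in each genotype, with sums of 0.725 to 4.95 before LPS and 0.110 to 0.304 after it. The part of these cells in the results below was not tested, and in bulk RNA fewer cells of a type and less RNA per cell cannot be told apart. Dcn, Lum, Camp and Lck passed the filter on dim signals only through the LPS groups. Cd2, Lat, Cpa3, Mcpt8, Prss34, Cd200r3, Ctsg and Cd163 passed it only through the unstimulated groups. The filter thus set the direction of these markers, and counts that hold them are no independent support. Over all genes 9.48% were called higher and 10.7% lower in WT, and 10.4% and 10.5% in KO.

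LPS moved the module in both directions. Averaged over both genotypes, 8 members rose and 12 fell, that is 20 of 40 or 50%, where 37.4% of all genes were called in that comparison. The members that rose were Irg1, the kinase gene Pfkfb3, the enolase Eno2, Hif1a, the glucose transporter Slc2a6, the hexokinases Hk2 and Hk3 and the phosphofructokinase Pfkl. Those that fell were the aldolase Aldoc, the isocitrate dehydrogenases Idh1, Idh2 and Idh3a, fumarate hydratase Fh1, malate dehydrogenase Mdh1, Pfkm, Pfkfb4, Gpi1, Pdk1, transketolase Tkt and transaldolase Taldo1. Of the enzymes from Gapdh to Ldha, the later steps of glycolysis, only Eno2 was among them.

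In WT cells 3 members rose and 10 fell, 32.5% of the 40 beside 20.2% of all genes (9.48% called higher and 10.7% called lower). KO cells had 3 members higher and 5 lower, 20% of the members beside 20.8% of all genes (10.4% higher and 10.5% lower). The median log2 change of the 40 was -0.266 in WT, -0.166 in KO and -0.176 averaged, and over all genes it was 0.00135, 0.0486 and 0.0315. The medians of the 40 hung on single arrays. In WT the median was -0.00523 without WT LPS replicate 2 and -0.117 without WT unstimulated replicate 1. In KO it was 0.0797 without KO LPS replicate 2, -0.0297 without KO unstimulated replicate 1, -0.353 without KO LPS replicate 1 and -0.35 without KO unstimulated replicate 2. The averaged median ran from -0.289 (without KO LPS replicate 1) to -0.0365 (without KO LPS replicate 2), with -0.281 without WT unstimulated replicate 2, -0.267 without KO unstimulated replicate 2, -0.108 without WT unstimulated replicate 1 and -0.0913 without WT LPS replicate 2. Irg1, Eno2, Hif1a, Aldoc, Idh1, Idh2, Fh1 and Pfkfb4 were called in both genotypes. Pfkm, Pdk1, Tkt, Taldo1 and Mdh1 were called in WT and not in KO, with no member the other way round, and none of these 5 had a called difference between the responses. For Mdh1 this hung on the probe that stood for the gene, since its second probe was called in both genotypes. The second probe of Pdk1 was called in neither. With replicate number as a block, Pfkm and Pdk1 were called in KO too. A further 7 members were called in the average over genotypes alone. The average uses the arrays of both genotypes again and is no separate experiment. Groups did not overlap in WT for 24 members (8 higher and 16 lower), beside 62% of all genes (30% higher and 32% lower), and in KO for 24 members (9 higher and 15 lower), beside 63.7% (33.3% higher and 30.4% lower). Over the 4 LPS and 4 unstimulated arrays together 22 members did not overlap (8 higher and 14 lower), beside 44.1% of all genes (21.5% higher and 22.5% lower). The direction of the change was the same in both genotypes for 39 of 40 members, Hk1 being the other one with 0.06 in WT and -0.08 in KO, and for 13627 of 15400 genes.

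**Figure D1:**
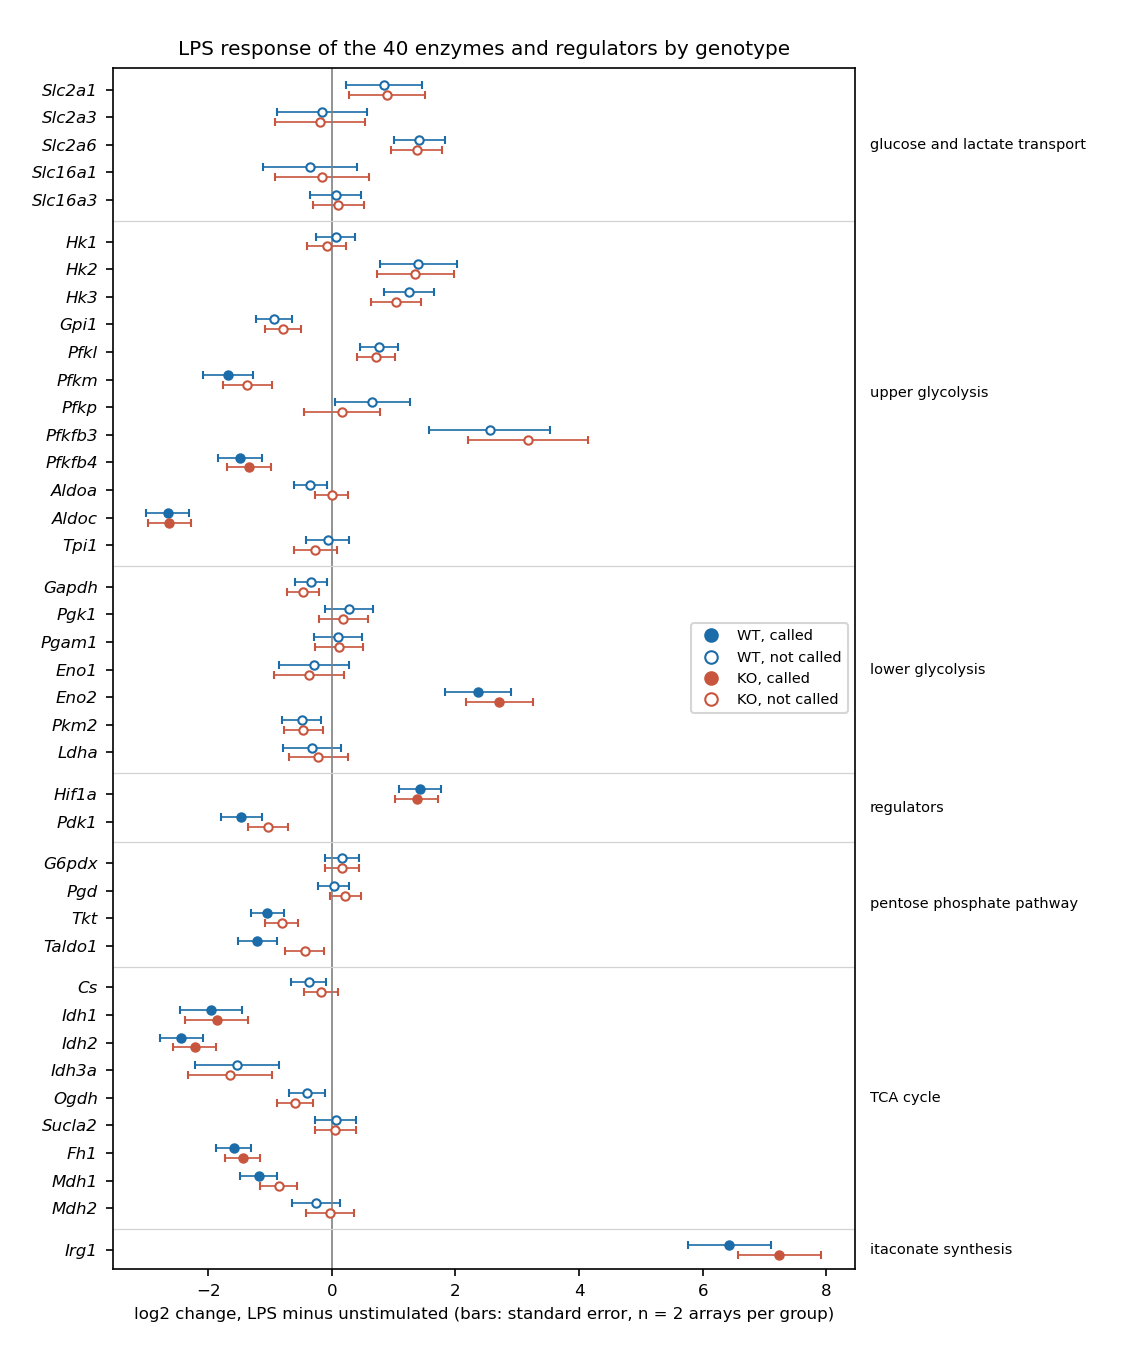
Log2 change of each of the 40 members after LPS (horizontal axis) in WT (blue) and KO (red) cells, with standard errors from limma and n = 2 arrays per group; filled points were called at an adjusted p under 0.05. Irg1 stands far to the right in both genotypes (6.43 and 7.24), Aldoc and Idh2 lie farthest to the left, and the points of WT and KO lie close together in most genes.

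The calls within a genotype rest on 2 arrays against 2, and many ended when 1 array was left out. In WT the calls of Irg1, Aldoc and Idh2 held without each of the WT arrays in turn. Those of Hif1a (1.16 to 1.69), Idh1 (-2.23 to -1.68), Mdh1 (-1.22 to -1.15), Tkt (-1.25 to -0.84) and Taldo1 (-1.50 to -0.92) ended without any 1 of the 4 WT arrays, Tkt and Taldo1 also without any 1 KO array and Mdh1 without either KO LPS array, with unchanged values. Pfkm (-2.08 to -1.29) and Pfkfb4 (-1.95 to -1.03) kept their call only without WT unstimulated replicate 1, Eno2 (1.58 to 3.16) and Pdk1 (-1.80 to -1.13) only without WT LPS replicate 1, and Fh1 (-1.78 to -1.39) only without WT unstimulated replicate 2, among the fits that left out a WT array. In KO the calls of Irg1, Aldoc and Idh2 held in the same way. Hif1a (1.05 to 1.69) and Pfkfb4 (-1.46 to -1.23) ended without any 1 of the 4 KO arrays, Eno2 (2.42 to 3.01) kept its call only without KO LPS replicate 1, Idh1 (-2.47 to -1.26) only without KO unstimulated replicate 1 and Fh1 (-1.67 to -1.22) only without KO unstimulated replicate 2. Idh1 in KO also lost its call without any 1 WT array, and Pfkfb4 without either WT LPS array. The count of called members was 3 to 12 in WT (3 without WT LPS replicate 2, and 5 without WT LPS replicate 1 or either WT unstimulated array) and 3 to 8 in KO (3 without KO LPS replicate 2, 4 without either KO unstimulated array, 5 without KO LPS replicate 1). Averaged over genotypes, 13 of 20 calls held without each of the 8 arrays in turn, and the count was 15 to 17.

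The arrays lay on 2 slides. Slide 1 carried WT unstimulated replicates 1 and 2, replicate 2 of WT LPS and replicate 2 of KO unstimulated, and slide 2 the other 4. With slide as a block 7 members were called in WT, 6 in KO and 15 averaged. Within slide 1, WT LPS replicate 2 against the WT unstimulated arrays gave 5 called members, of which 4 (Irg1, Eno2, Aldoc and Idh2) were among the 13. Within slide 2, both KO LPS arrays against KO unstimulated replicate 1 gave 1, Irg1. Every called change kept its direction in these fits.

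The core of the DNA element that HIF-1 binds is known to read ACGTG or GCGTG, and these letters were looked up in the promoters of the members. The promoter table of RefSeq (build GRCm38.p6, which differs from the mm9 of the array files) held entries for 38 of the 40 members, Slc2a3 and Idh3a being the others, with Pkm2 listed as Pkm and Irg1 as Acod1. The 250 bases before each start were searched on both strands for ACGTG and GCGTG, with matches that overlap (as in CACGTG) counted as 1 stretch. Of the 38 members 33, or 86.8%, had at least 1 match before any of their starts, beside 59.2% of 10272 tested genes with an entry. The members had 58 windows for 38 genes and the tested genes 13030 for 10272. A gene with more starts has more windows in which to match, and the shares were not adjusted for this. By window the share was 46 of 58 for the members (79.3%) and 38.6% of all 32851 promoters. These 2 shares are not a like comparison, since all promoters include those of genes not tested. Windows of 1 gene can also overlap, as for Ogdh with 6 starts, and are not independent. The share was 7 of 8 among members that rose, 10 of 11 among those that fell and 16 of 19 among those not called. The members' windows had a median G+C content of 60.4%, those of tested genes 59.2% and all windows 52.4%. A match is a run of letters and no measured binding site.

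Windows are shown for the 3 members with the largest averaged rises and for 3 that fell in both genotypes. The latter are an aldolase and 2 enzymes listed under the TCA cycle, and the choice was made with the values known. Each is from the first start in the table, 5′ to 3′ on the strand of the gene, with the matched letters in capitals (CACGT is ACGTG read on the other strand). They are Irg1 (chr14:103046762-103047011, plus strand), Pfkfb3 (chr2:11553930-11554179, minus strand), Eno2 (chr6:124769674-124769923, minus strand), Aldoc (chr11:78322823-78323072, plus strand), Idh2 (chr7:80115351-80115600, minus strand) and Fh1 (chr1:175625636-175625885, minus strand), all in GRCm38.p6.
Irg1 promoter: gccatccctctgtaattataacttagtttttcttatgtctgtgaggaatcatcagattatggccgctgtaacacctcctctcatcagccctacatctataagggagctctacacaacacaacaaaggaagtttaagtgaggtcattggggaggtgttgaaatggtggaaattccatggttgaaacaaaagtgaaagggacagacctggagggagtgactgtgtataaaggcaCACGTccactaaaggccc
Pfkfb3 promoter: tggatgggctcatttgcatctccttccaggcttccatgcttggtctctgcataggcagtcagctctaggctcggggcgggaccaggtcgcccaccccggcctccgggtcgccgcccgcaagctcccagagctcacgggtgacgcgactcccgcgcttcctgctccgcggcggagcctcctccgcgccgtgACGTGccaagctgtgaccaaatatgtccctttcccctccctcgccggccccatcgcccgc
Eno2 promoter: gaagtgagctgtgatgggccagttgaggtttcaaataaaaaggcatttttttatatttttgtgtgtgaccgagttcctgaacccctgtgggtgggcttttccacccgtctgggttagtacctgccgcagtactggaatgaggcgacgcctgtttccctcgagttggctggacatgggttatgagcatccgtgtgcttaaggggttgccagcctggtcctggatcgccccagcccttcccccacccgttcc
Aldoc promoter: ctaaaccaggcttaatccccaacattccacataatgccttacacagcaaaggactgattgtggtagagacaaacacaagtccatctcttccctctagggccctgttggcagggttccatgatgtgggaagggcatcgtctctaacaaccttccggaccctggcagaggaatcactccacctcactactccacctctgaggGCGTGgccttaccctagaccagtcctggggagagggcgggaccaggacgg
Idh2 promoter: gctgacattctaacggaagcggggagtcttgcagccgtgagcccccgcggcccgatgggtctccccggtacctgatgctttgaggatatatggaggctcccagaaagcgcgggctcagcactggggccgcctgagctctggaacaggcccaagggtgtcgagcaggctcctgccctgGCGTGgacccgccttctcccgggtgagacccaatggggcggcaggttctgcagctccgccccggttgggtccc
Fh1 promoter: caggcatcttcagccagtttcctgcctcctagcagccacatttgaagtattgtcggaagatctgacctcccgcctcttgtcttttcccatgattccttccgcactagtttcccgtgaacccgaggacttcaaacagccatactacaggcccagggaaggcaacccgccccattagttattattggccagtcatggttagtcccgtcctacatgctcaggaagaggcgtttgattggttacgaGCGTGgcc
Eno2, which rose, held neither motif in this window, and the windows of Aldoc, Idh2 and Fh1, which fell, each held 1 match to GCGTG. Irg1 and Pfkfb3 each held 1 match to ACGTG in the windows shown.

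Irg1 (also called Acod1), the enzyme that decarboxylates cis-aconitate to itaconate, changed most. Its scaled log2 signal was 3.29 and 1.78 on WT unstimulated replicates 1 and 2, 8.98 and 8.95 on WT LPS replicates 1 and 2, 2.61 and 0.83 on the KO unstimulated arrays and 9.14 and 8.78 on the KO LPS arrays. The 4 LPS arrays lay close together and far above all 4 unstimulated arrays, which were themselves spread widely. The rise was 6.43 ± 0.68 (SE, n = 2 arrays per group, 86.2-fold, adjusted p = 0.00161) in WT and 7.24 ± 0.68 (151-fold, adjusted p = 0.000949) in KO. With slide as a block it was 5.98 in WT and 6.79 in KO. A second probe, which overlaps the first, gave 6.57 and 7.16.

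**Figure D2:**
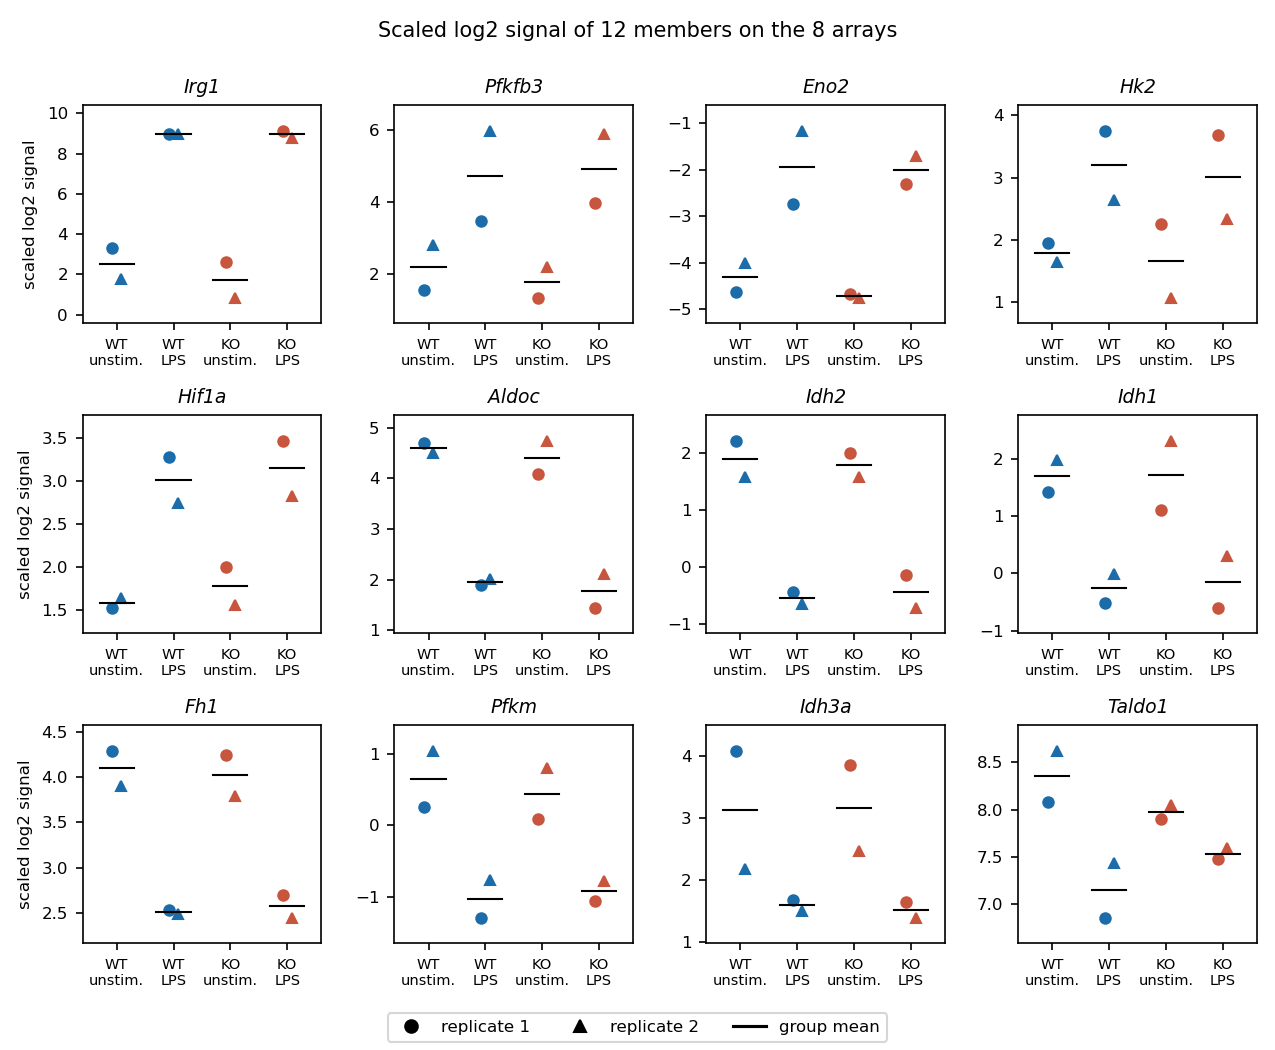
Scaled log2 signal (vertical axis) of 12 members in the 4 groups, WT in blue and KO in red, with replicate 1 as circles, replicate 2 as triangles and the group mean as a line; each panel has its own vertical scale. In Irg1 the 4 LPS arrays lie near 9, in Pfkfb3 replicate 2 lies above replicate 1 in all 4 groups, and in Taldo1 the fall is wider in WT than in KO without a called difference.

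Among the 5 transporters only Slc2a6 was called, and only in the average over genotypes. Slc2a6 encodes GLUT6, a glucose transporter family member of intracellular membranes. It read 5.22 and 5.25 on WT unstimulated arrays, 6.28 and 7.01 on WT LPS arrays, 5.0 and 5.14 on KO unstimulated arrays and 5.93 and 6.96 on KO LPS arrays. Every LPS array was above every unstimulated array, with replicate 2 above replicate 1 after LPS in both genotypes. The averaged change was 1.39 ± 0.29 (2.63-fold, adjusted p = 0.010), with 1.41 in WT (adjusted p = 0.0538) and 1.37 in KO (adjusted p = 0.0578). Slc2a1, the GLUT1 glucose transporter of most cells, had 0.88 ± 0.43 (adjusted p = 0.157, 95% interval -0.16 to 1.91). It read 4.54 and 3.82 before and 5.53 and 4.53 after LPS in WT, and 4.70 and 3.13 before and 5.18 and 4.45 after in KO, so that the groups overlapped. The GLUT3 gene Slc2a3 had -0.18 ± 0.51, the lactate and pyruvate transporter Slc16a1 -0.26 ± 0.54 and the lactate exporter Slc16a3 (MCT4) 0.08 ± 0.29, and none of the 3 was called in either genotype.

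The first step of glycolysis, the phosphorylation of glucose, is served by 3 hexokinase genes, and Hk2 and Hk3 rose while Hk1 did not pass the test. Hk2, the hexokinase of muscle and of many activated cells, read 1.95 and 1.65 before and 3.76 and 2.64 after LPS in WT, and 2.26 and 1.07 before and 3.69 and 2.34 after in KO. LPS arrays were higher than all unstimulated arrays, the lowest LPS array (KO replicate 2) by little. Averaged over genotypes Hk2 rose by 1.38 ± 0.44 (2.60-fold, adjusted p = 0.0456). The call ended with slide as a block (0.80, adjusted p = 0.198) and without any 1 of WT LPS 1, WT unstimulated 1, WT unstimulated 2, KO LPS 1 or KO unstimulated 2 (1.04 to 1.45 in these fits, adjusted p up to 0.134). Hk3, a hexokinase prominent in white blood cells, rose by 1.15 ± 0.29 (2.21-fold, adjusted p = 0.0201), from 3.37 and 3.21 to 4.85 and 4.22 in WT and from 3.29 and 3.36 to 4.90 and 3.84 in KO. Its call ended with the slide block (1.0, adjusted p = 0.0933) and without WT LPS 1, WT unstimulated 2, KO unstimulated 1 or KO unstimulated 2 (0.99 to 1.16). Hk1, the hexokinase of most tissues, had -0.01 ± 0.22 (95% interval -0.54 to 0.52), and its 5 passing probes ranged from -0.12 to 0.55 with none called.

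Glucose-6-phosphate isomerase, Gpi1, makes fructose-6-phosphate. Its signal went from 7.46 and 7.69 to 6.82 and 6.47 in WT and from 7.61 and 7.25 to 6.83 and 6.44 in KO, with no overlap between LPS and unstimulated arrays. The averaged fall was called (-0.86 ± 0.21, 1.82-fold lower, adjusted p = 0.0165) and the call ended without WT LPS 2 (-0.78) or KO LPS 2 (-0.77).

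Phosphofructokinase, the committed step of glycolysis, has 3 subunit genes, and Pfkl rose, Pfkm fell and Pfkp was not called. Pfkm, the muscle subunit, read 0.25 and 1.05 before and -1.30 and -0.77 after LPS in WT, and 0.08 and 0.80 before and -1.06 and -0.79 after in KO. All 4 LPS arrays lay below 0 and all 4 unstimulated arrays above it. The fall was 1.68 ± 0.40 on the log2 scale in WT (3.21-fold lower, adjusted p = 0.0284), and KO had -1.36 ± 0.40 (adjusted p = 0.0540). Pfkl, the liver subunit, rose by 0.74 ± 0.21 averaged over genotypes (1.67-fold, adjusted p = 0.0340), from 1.11 and 0.84 to 1.66 and 1.82 in WT and from 0.73 and 1.16 to 1.93 and 1.39 in KO. That call ended with the slide block (0.88, adjusted p = 0.0524) and without any 1 array other than KO LPS 2 and KO unstimulated 2 (0.61 to 0.81 in those fits). Pfkp, the platelet subunit, had 0.41 ± 0.43 (95% interval -0.61 to 1.43), and its 3 probes gave 0.41, 0.32 and -0.25.

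The PFKFB enzymes make and break fructose 2,6-bisphosphate, the activator of phosphofructokinase. Pfkfb3, the form with mostly kinase activity, rose and Pfkfb4 fell. Pfkfb3 read 1.55 and 2.80 before and 3.46 and 5.99 after LPS in WT, and 1.32 and 2.19 before and 3.97 and 5.88 after in KO. LPS arrays were above all unstimulated arrays, while replicate 2 exceeded replicate 1 by about as much as some of the changes, which gave the widest intervals of the module. The averaged rise was 2.86 ± 0.69 (7.28-fold, adjusted p = 0.0171). Within WT it was 2.55 ± 0.97 (adjusted p = 0.114) and within KO 3.18 ± 0.97 (adjusted p = 0.0621), neither called, and the averaged call ended without WT unstimulated 1 (2.55) or KO unstimulated 1 (2.65). With slide as a block the averaged change was 3.71 (adjusted p = 0.0129).

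All 3 Pfkfb3 probes were called in the average. The probe used lies at chr2:11393579-11393638 on the minus strand of mm9. The other 2 are placed by the files over chr2:11411973-11414235 and chr2:11404189-11405602, stretches of 2263 and 1414 bases for probes of 60 bases, so that each spans at least 1 intron and reads spliced RNA. They are shown because they read other stretches of the transcript, with 2.91 for the first and 2.97 for the second beside 2.86.
Pfkfb3 probe over chr2:11411973-11414235: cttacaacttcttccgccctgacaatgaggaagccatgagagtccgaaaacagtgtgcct
Pfkfb3 probe over chr2:11404189-11405602: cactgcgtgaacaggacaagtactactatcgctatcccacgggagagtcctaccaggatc
Pfkfb4 read 3.32 and 4.24 before and 2.17 and 2.41 after LPS in WT, and 3.58 and 3.37 before and 2.02 and 2.25 after in KO. LPS arrays were all lower than unstimulated arrays. Pfkfb4 fell by 1.49 ± 0.35 in WT (2.80-fold lower, adjusted p = 0.0283) and by 1.34 ± 0.35 in KO (2.54-fold lower, adjusted p = 0.0382).

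Aldolase splits fructose 1,6-bisphosphate, and of its 2 measured genes Aldoc fell and Aldoa was not called. Aldoc, the isozyme known from brain, read 4.71 and 4.50 before and 1.89 and 2.01 after LPS in WT, and 4.08 and 4.75 before and 1.44 and 2.12 after in KO. Every unstimulated array stood well above every LPS array. Aldoc fell by 2.65 ± 0.35 in WT (6.29-fold lower, adjusted p = 0.00348) and by 2.63 ± 0.35 in KO (6.20-fold lower, adjusted p = 0.00319). Its second probe, at chr11:78141189-78141248 in mm9, gave -3.81 in WT and -3.48 in KO. Aldoa, the isozyme of most cells, had -0.18 ± 0.19 averaged (95% interval -0.62 to 0.27), with arrays between 8.75 and 9.43. Tpi1, triose phosphate isomerase, had -0.17 ± 0.25, and its second probe gave 0.58, with neither called.

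From Gapdh to Ldha, the second stage that yields ATP and pyruvate, 1 of 7 members was called. Gapdh had -0.40 ± 0.18 (adjusted p = 0.131), Pgk1, phosphoglycerate kinase, 0.23 ± 0.28, and Pgam1, phosphoglycerate mutase, 0.10 ± 0.27. The pyruvate kinase Pkm2 had -0.47 ± 0.22 (adjusted p = 0.142) and Ldha, lactate dehydrogenase A, -0.27 ± 0.33. Gapdh and Pkm2 read lower on all 4 LPS arrays than on all 4 unstimulated arrays, and under quantile normalization both were called lower (Gapdh -0.75, adjusted p = 0.0345, and Pkm2 -0.70, adjusted p = 0.0475). The value of Pgk1 is uncertain, since the files place both of its probes on chromosome 3 of mm9 while RefSeq lists the gene on chromosome X, and a near-identical copy could share the signal.

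Enolase had 2 members that differed. Eno2, the enolase known from neurons, read -4.63 and -4.01 before and -2.74 and -1.16 after LPS in WT, and -4.67 and -4.76 before and -2.30 and -1.71 after in KO. It was well above background on 1 of the 2 WT unstimulated arrays and on both arrays of each other group, and every LPS array lay above every unstimulated array. The rise was 2.37 ± 0.54 in WT (5.16-fold, adjusted p = 0.0236) and 2.71 ± 0.54 in KO (6.55-fold, adjusted p = 0.0144). Eno1, the enolase of most tissues, had -0.28 ± 0.57 in WT and -0.37 ± 0.57 in KO, with arrays from 3.11 to 4.77 and groups that overlapped.

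Pyruvate kinase showed a probe that moved against the rest of its gene. A probe at chr9:59520400-59520459 (mm9, plus strand), upstream of the other probes, rose by 0.81 ± 0.23 averaged over genotypes. The probe used, at chr9:59526907-59526966, and the one beside it gave -0.47 and -0.45, not called. What transcript the upstream probe reads was not tested.

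**Figure D3:**
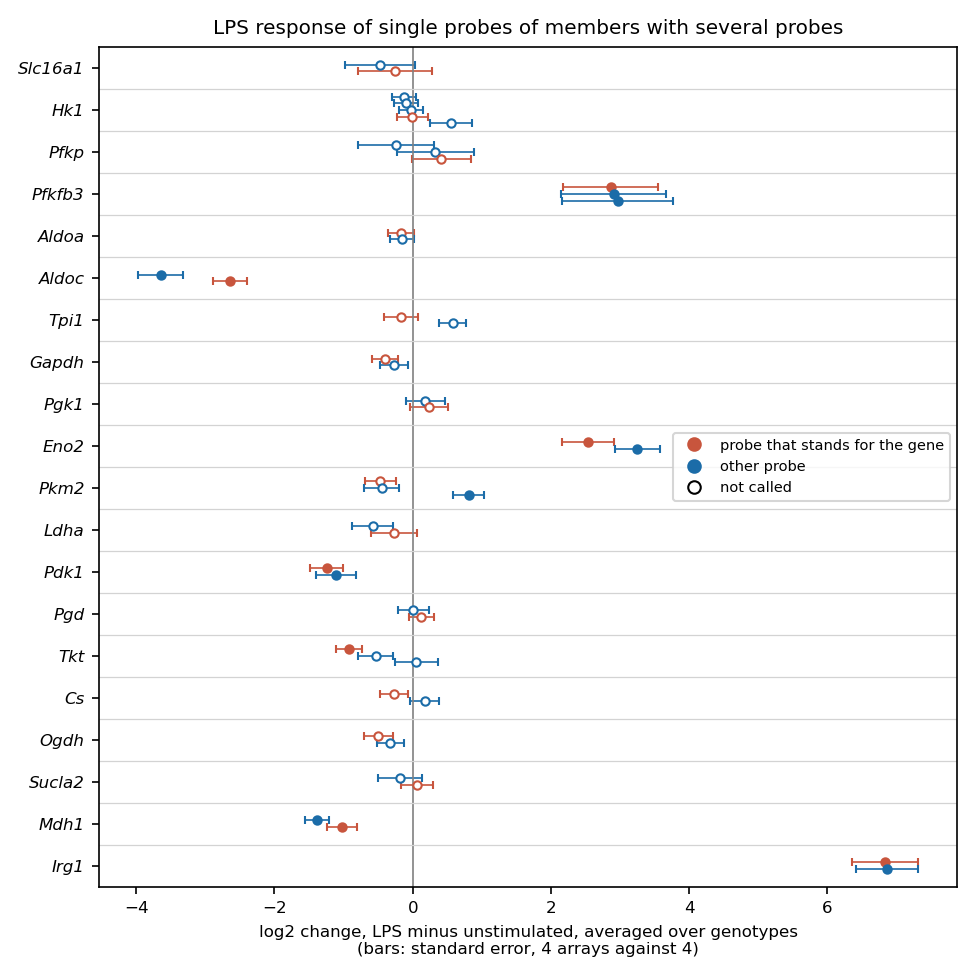
Log2 change after LPS averaged over genotypes (horizontal axis, bars are standard errors, 4 arrays against 4) for every passing probe of the 20 members with several, with the probe that stands for the gene in red, other probes in blue and open points for probes not called. The probes of Irg1, Pfkfb3, Pdk1 and Mdh1 lie close together, those of Aldoc share a side, and Pkm2 has probes on both sides of 0 (-0.47 and 0.81).

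Hif1a and Pdk1 are the regulators among the members. Hif1a read 1.52 and 1.63 before and 3.27 and 2.73 after LPS in WT, and 2.0 and 1.55 before and 3.46 and 2.82 after in KO. No LPS array overlapped an unstimulated array, and the rise was 1.42 ± 0.34 in WT (2.68-fold, adjusted p = 0.0295) and 1.37 ± 0.34 in KO (2.58-fold, adjusted p = 0.0323). Pdk1, the kinase that inhibits pyruvate dehydrogenase and is itself a known HIF-1 target, went the other way. Its signal was 0.09 and -0.18 before and -1.17 and -1.84 after LPS in WT, and -0.17 and -0.25 before and -0.98 and -1.49 after in KO. Pdk1 fell by 1.47 ± 0.33 in WT (2.76-fold lower, adjusted p = 0.0230), KO had -1.03 ± 0.33 (adjusted p = 0.0701), and both of its probes were called lower in the average (-1.25 for the probe used). The second probe was called in neither genotype when single probes were fitted. It had -1.38 in WT (limma, adjusted p = 0.0574) and -0.84 in KO (adjusted p = 0.203).

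In the pentose phosphate pathway the 2 oxidative dehydrogenases were not called and the 2 enzymes of the non-oxidative branch fell in WT. G6pdx, glucose-6-phosphate dehydrogenase and the entry to the pathway, had 0.17 ± 0.20 averaged (95% interval -0.30 to 0.63) and Pgd, the next dehydrogenase to make NADPH, 0.13 ± 0.17 (95% interval -0.29 to 0.54). Tkt, transketolase, read 7.25 and 7.53 before and 6.14 and 6.55 after LPS in WT, and 7.18 and 7.08 before and 6.37 and 6.28 after in KO. Its arrays separated by state, with a fall of 1.04 ± 0.27 in WT (2.06-fold lower, adjusted p = 0.0353) and -0.81 ± 0.27 in KO (adjusted p = 0.0763). The Tkt call ended when the median of the 3 probes stood for the gene, in WT (-0.65) and in the average (-0.53), and the single probes gave -0.93, -0.53 and 0.05 averaged over genotypes. Taldo1, transaldolase, read 8.08 and 8.62 before and 6.86 and 7.44 after LPS in WT, and 7.90 and 8.05 before and 7.48 and 7.59 after in KO. It fell by 1.21 ± 0.32 in WT (2.31-fold lower, adjusted p = 0.0388) and had -0.44 ± 0.32 in KO (adjusted p = 0.380). The averaged call of Taldo1 (-0.82 ± 0.22, adjusted p = 0.0270) ended with the slide block (-0.64, adjusted p = 0.124) and without any 1 array other than WT LPS 2 and WT unstimulated 1 (-0.86 to -0.68 in those fits).

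Of the 9 members listed under the TCA cycle 5 fell averaged over genotypes and none rose, with a median of -1.02. Over all genes 19% were called lower and the median was 0.0315. The 9 include the cytosolic Idh1 and Mdh1 and the NADP-dependent Idh2, which are not steps of the mitochondrial cycle as described above. Of the others Idh3a and Fh1 fell in the average, and Cs, Ogdh, Sucla2 and Mdh2 were not called. In WT 4 fell (Idh1, Idh2, Fh1 and Mdh1) and in KO 3 (Idh1, Idh2 and Fh1). The isocitrate dehydrogenases carried the widest falls. Idh2, the mitochondrial NADP-dependent form, read 2.22 and 1.58 before and -0.43 and -0.65 after LPS in WT, and 2.0 and 1.57 before and -0.14 and -0.71 after in KO. Every LPS array lay below 0 and every unstimulated array above it. Idh2 fell by 2.44 ± 0.35 in WT (5.42-fold lower, adjusted p = 0.00480) and by 2.21 ± 0.35 in KO (4.64-fold lower, adjusted p = 0.00632), and by 2.60 in WT and 2.37 in KO with slide as a block. Idh1, the cytosolic form, read 1.42 and 1.97 before and -0.51 and -0.01 after LPS in WT, and 1.11 and 2.32 before and -0.60 and 0.30 after in KO, so that its arrays separated by state with replicate 2 above replicate 1 in every group. It fell by 1.96 ± 0.51 in WT (3.88-fold lower, adjusted p = 0.0370) and by 1.86 ± 0.51 in KO (3.63-fold lower, adjusted p = 0.0425).

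Idh3a, the catalytic subunit of the NAD-dependent isocitrate dehydrogenase of the cycle, had replicates that lay far apart before LPS. It read 4.08 and 2.18 on the WT unstimulated arrays and 3.84 and 2.47 on the KO unstimulated arrays, and 1.68, 1.50, 1.64 and 1.38 on the LPS arrays of WT and KO. The LPS arrays lay close together and below all unstimulated arrays. Averaged over genotypes the fall was called (-1.59 ± 0.48, 3.01-fold lower, adjusted p = 0.0385), and it was not called in WT (-1.54 ± 0.68, adjusted p = 0.159) or KO (-1.64 ± 0.68, adjusted p = 0.140). The averaged call of Idh3a ended with the slide block (-1.98, adjusted p = 0.0509) and without any 1 array other than WT unstimulated 2 and KO unstimulated 2 (-1.66 to -1.12 in those fits).

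Fumarate hydratase, Fh1, turns fumarate into malate. Its values were 4.29 and 3.90 before and 2.53 and 2.49 after LPS in WT, and 4.25 and 3.79 before and 2.70 and 2.45 after in KO. Replicates agreed more closely after LPS than before, and the states did not overlap. Fh1 fell by 1.59 ± 0.29 in WT (3.01-fold lower, adjusted p = 0.0112) and by 1.44 ± 0.29 in KO (2.72-fold lower, adjusted p = 0.0147). The 1 Fh1 probe is placed over chr1:177531659-177534089 on the minus strand of mm9, 2431 bases for a probe of 60, and so reads spliced RNA, which is why it is shown.
Fh1 probe: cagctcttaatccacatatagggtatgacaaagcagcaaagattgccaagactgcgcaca
Mdh1, the cytosolic malate dehydrogenase, read 4.74 and 4.74 before and 3.59 and 3.52 after LPS in WT, and 4.90 and 4.20 before and 3.72 and 3.66 after in KO. It fell by 1.18 ± 0.30 in WT (2.27-fold lower, adjusted p = 0.0338) and had -0.86 ± 0.30 in KO (adjusted p = 0.0871). Its second probe was called lower in both genotypes when single probes were fitted, with -1.395 in WT and -1.373 in KO (limma, adjusted p = 0.0109 in each). In the average that probe was also called lower, with -1.38 beside -1.02. Mdh2, the mitochondrial isozyme, had -0.14 ± 0.27 averaged (95% interval -0.79 to 0.51).

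The 3 other members of the cycle were not called. Citrate synthase, Cs, had -0.27 ± 0.20 averaged, and its second probe 0.18. Ogdh, the first subunit of the 2-oxoglutarate dehydrogenase complex, had -0.50 ± 0.20 (adjusted p = 0.0994), and Sucla2, a subunit of succinyl-CoA ligase, 0.06 ± 0.23.

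**Figure D4:**
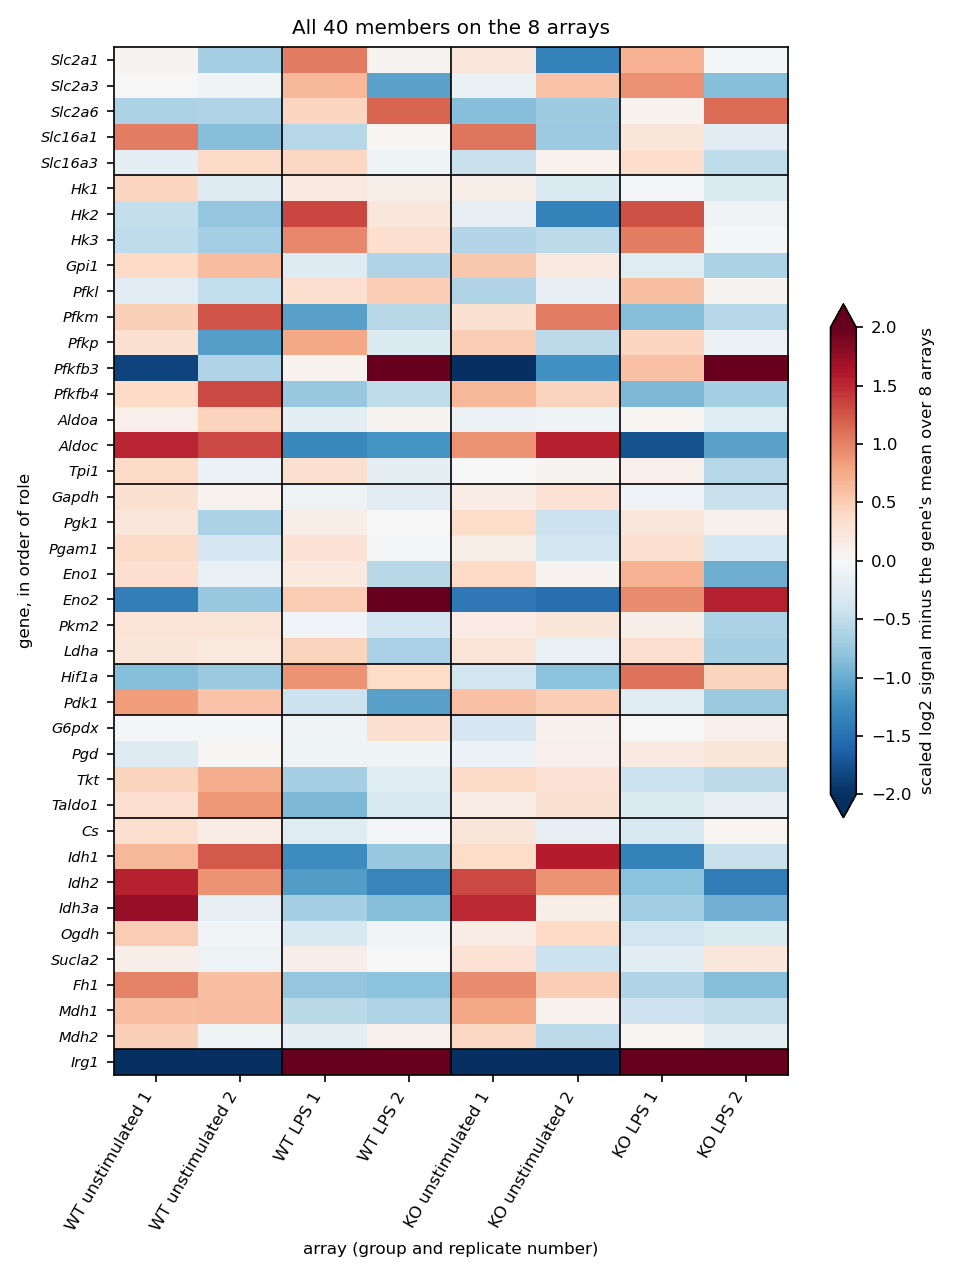
Scaled log2 signal of all 40 members (rows, in order of role) on the 8 arrays (columns, by group and replicate number), with the mean of each gene over the 8 arrays subtracted; colours run from -2 (blue) to 2 (red) and values beyond are drawn at the ends. Irg1, Pfkfb3, Eno2 and Hif1a are red on LPS arrays, Aldoc, Idh1, Idh2 and Fh1 are blue there, and Hk2 and Pfkfb3 also differ between replicate numbers 1 and 2.

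Isozymes of 1 step had unlike values. Averaged over genotypes Eno2 had 2.54 and Eno1 -0.33, Aldoc -2.64 and Aldoa -0.18, and Mdh1 -1.02 and Mdh2 -0.14. Pfkl had 0.74, Pfkp 0.41 and Pfkm -1.52, Hk2 1.38, Hk3 1.15 and Hk1 -0.01, and Slc2a6 1.39, Slc2a1 0.88 and Slc2a3 -0.18. Idh1 and Idh2 fell together, with -1.91 and -2.33. These are changes of each gene on its own probe, and the differences between the changes of 2 isozymes were not tested.

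The comparison of KO with WT asks whether miR-155 alters these genes at rest or after LPS, and no member was called in either state. In unstimulated cells 0 of 40 passed the limma test, 0 also had an unadjusted p under 0.05, and 0.24% of all genes were called. After LPS the count was again 0, with 0 at an unadjusted p under 0.05 and 0.026% of all genes called. The test of whether KO responded to LPS differently from WT gave 0 members, 0 of them with an unadjusted p under 0.05, beside 0.0455% of all genes. These 3 comparisons share arrays with the LPS comparisons and with each other. The counts of 0 held under every alternative that was run, but the medians of the 40 did not. With normexp background correction the median after LPS was -0.78, beside -0.0354 without it and 0.0261 over all genes. For the difference between responses it was -0.63, beside 0.0471 without it and 0.0687 over all genes. Since normexp left 0 genes called in these comparisons, its count of 0 members says little. The intervals below are from the fit without it.

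Intervals show what size of difference the 2 arrays per group could leave unseen. Of the 40 members 16 had a 95% interval within 1 log2 unit on either side of 0 between unstimulated KO and WT, 18 after LPS and 1 for the difference between responses, with median half-widths of 0.833, 0.833 and 1.18. Gapdh had -0.59 to 0.65 at rest and -0.72 to 0.52 after LPS, Tkt -0.89 to 0.37 and -0.65 to 0.61, and Fh1 -0.76 to 0.61 and -0.61 to 0.75. Pfkfb3 had -2.73 to 1.89 at rest and -2.11 to 2.52 after LPS, so that a 2-fold difference in either direction was within the interval.

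The point estimates of largest size were in Irg1 and Taldo1. Irg1 was lower in unstimulated KO cells by 0.81 ± 0.68 (95% interval -2.42 to 0.79), where WT and KO arrays overlapped. After LPS the Irg1 means of both genotypes were 8.96, and the difference between its responses was 0.81 ± 0.96 (95% interval -1.46 to 3.08). Taldo1 was lower in both unstimulated KO arrays than in both WT arrays (-0.38 ± 0.32) and higher in both after LPS (0.39 ± 0.32), and the difference between its responses was 0.77 ± 0.45 (unadjusted p = 0.131, 95% interval -0.30 to 1.83). Groups did not overlap for 6 members at rest, each of them lower in KO (Slc2a6, Aldoa, Eno2, Pkm2, Tkt and Taldo1), beside 21% of all genes (7.89% higher and 13.1% lower), and for 4 after LPS (Pgd, Taldo1 and Mdh1 higher in KO and Hk1 lower), beside 21.2% (11.4% higher and 9.88% lower).

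**Figure D5:**
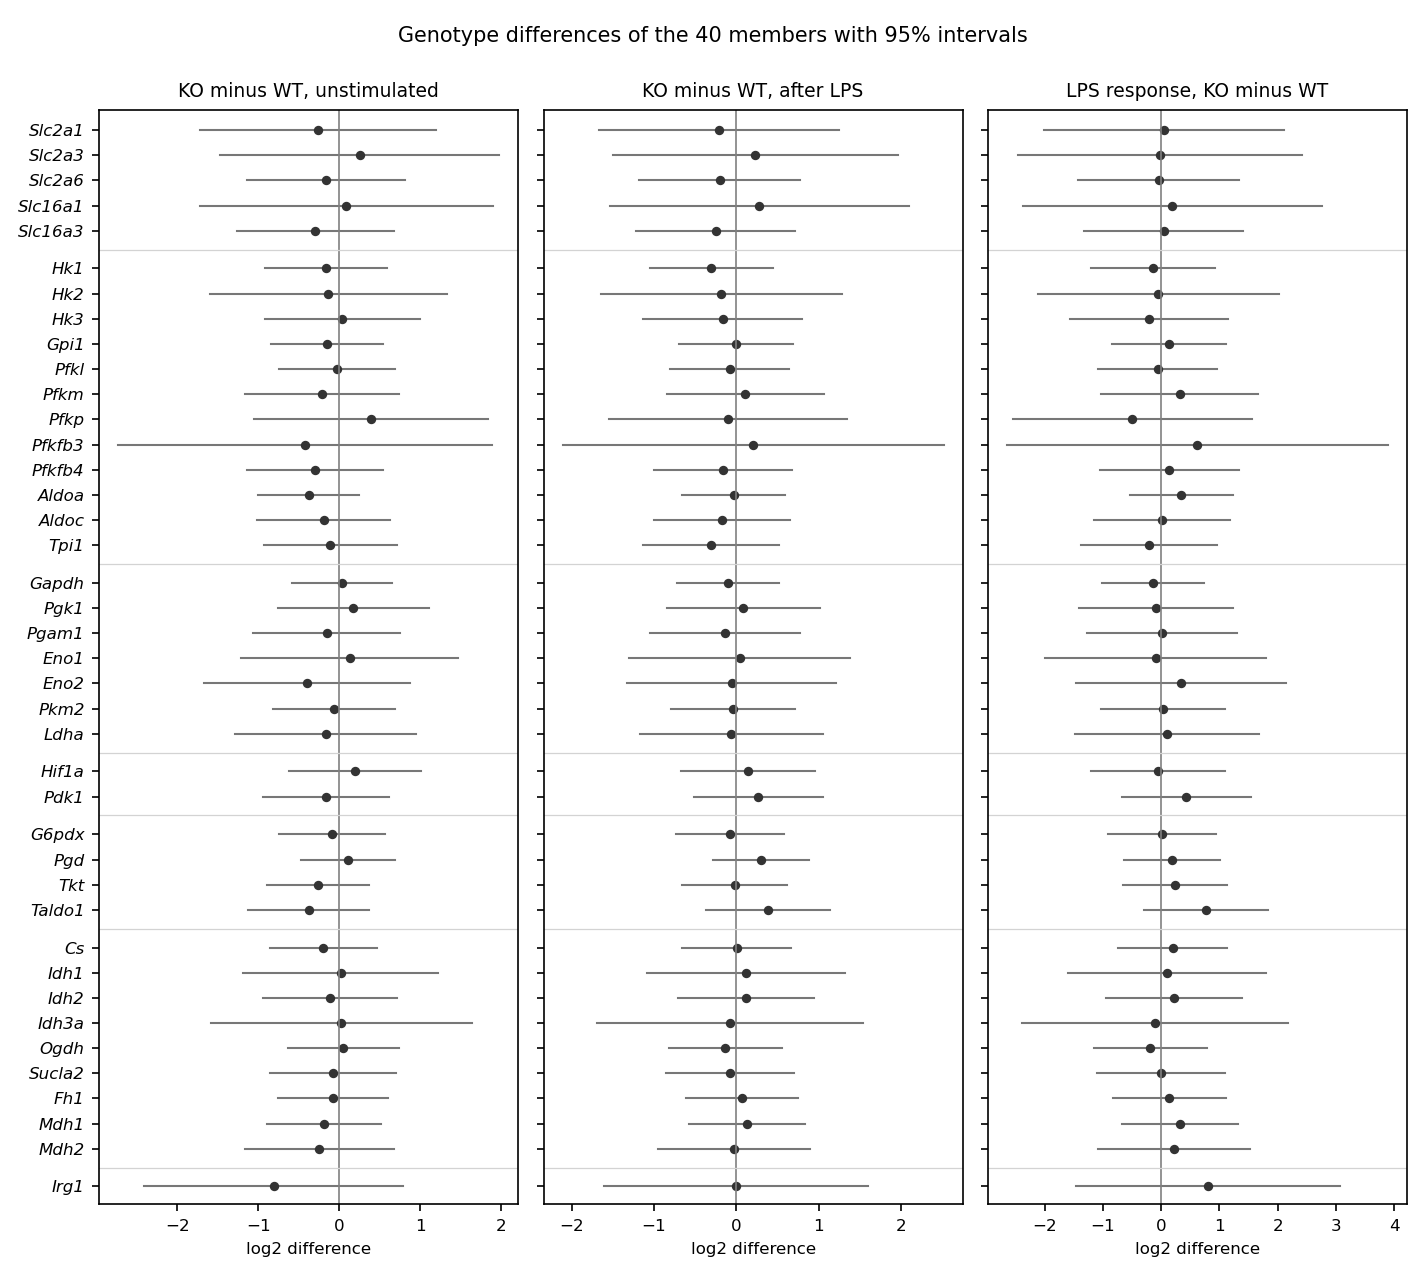
Log2 difference between KO and WT (horizontal axes) for the 40 members at rest (left), after LPS (middle) and between the LPS responses (right), as points with 95% intervals from the limma fit. All intervals include 0, Pfkfb3 has the widest, and Irg1 lies at -0.81 at rest and at 0.81 in the right panel.

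Other genes of the same pathways were read from companion lists, which were chosen with earlier results of these data known. Of 13 further glycolysis genes that passed the filter, 2 rose and 6 fell averaged over genotypes, with a median of -0.356. Over all genes 18.4% were called higher and 19% lower in that comparison, with a median of 0.0315. Ldhb, the lactate dehydrogenase subunit known from heart, fell by 3.44 ± 0.48 in WT and 3.31 ± 0.48 in KO, from readings of 3.95 to 5.10 on the unstimulated arrays to 0.60 to 1.68 after LPS, while Ldha, above, was not called. Slc16a7, a transporter with a high affinity for pyruvate and lactate, fell by 3.32 ± 0.56 and 3.09 ± 0.56, and Gpd1, the cytosolic glycerol-3-phosphate dehydrogenase, by 2.38 ± 0.32 in each genotype.

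Of 12 genes of pyruvate entry and the pyruvate dehydrogenase complex 1 rose and 4 fell in the average (median -0.297). The shares over all genes were 18.4% higher and 19% lower. Pcx, the pyruvate carboxylase that feeds oxaloacetate, rose in KO (1.41 ± 0.34, adjusted p = 0.0283) and had 0.94 ± 0.34 in WT (adjusted p = 0.0998). Brp44, a subunit of the mitochondrial pyruvate carrier now called Mpc2, fell in WT by 1.06 ± 0.24 (adjusted p = 0.0231) and had -0.80 ± 0.24 in KO (adjusted p = 0.0562).

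Among 18 other TCA and citrate genes 2 rose and 11 fell averaged over genotypes, with a median of -0.73, beside 18.4% of all genes called higher and 19% called lower. In WT 1 rose and 4 fell and in KO 1 rose and 3 fell. Me1, the cytosolic malic enzyme that makes NADPH, rose by 2.58 ± 0.57 in WT and 2.72 ± 0.57 in KO. Its readings were -3.28 to -1.62 on unstimulated arrays and 0.02 to 0.63 on LPS arrays. Me2, the mitochondrial NAD-dependent malic enzyme, fell by 1.40 ± 0.28 and 1.38 ± 0.28, and Got2, the mitochondrial aspartate aminotransferase, by 1.14 ± 0.30 and 1.10 ± 0.30.

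Called lower were 10.7% of all genes in WT, 10.5% in KO and 19% in the average. Of 7 further pentose phosphate genes none rose and 2 fell, in each genotype and in the average. These were Shpk, sedoheptulokinase (-1.74 ± 0.33 in WT and -1.73 ± 0.33 in KO), and Prps2, which makes phosphoribosyl pyrophosphate (-1.05 ± 0.25 and -1.57 ± 0.25). Of 12 glycogen genes 2 rose and 5 fell in the average (median -0.367), beside 18.4% and 19% of all genes. Phka2, a regulatory subunit of phosphorylase kinase, fell by 1.36 ± 0.30 in WT and 1.68 ± 0.30 in KO. Pgm1, a phosphoglucomutase, fell in WT by 0.97 ± 0.24 and had -0.70 ± 0.24 in KO (adjusted p = 0.0893).

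The hypoxia response list, made of known HIF targets and regulators, had 7 genes higher and 1 lower of 20 in the average (median 0.514). In WT 5 were higher and 1 lower, and in KO 3 were higher and 1 lower. Over all genes 18.4% were called higher and 19% lower in the average, 9.48% and 10.7% in WT, and 10.4% and 10.5% in KO. P4ha2, a collagen prolyl hydroxylase subunit, was not well above background on unstimulated arrays and rose at least 5.50-fold in WT (adjusted p = 0.00365) and at least 12.3-fold in KO (adjusted p = 0.00226). Adm, adrenomedullin, likewise rose at least 2.96-fold (adjusted p = 0.00728) and at least 12.6-fold (adjusted p = 0.00119). Both genes passed the filter on dim signals only through the LPS groups, so that they had to read higher after LPS, and their calls, which are among the 7, are no independent support. The same holds for the averaged call of Egln3, also among the 7. Egln3 passed the filter only through the LPS groups and was not called within a genotype. Each bound sets the LPS mean against the higher of the array's lowest detected signal and the gene's own signal. Epas1, the HIF-2 alpha subunit, fell by 4.19 ± 0.48 in WT and 3.78 ± 0.48 in KO, the opposite direction to Hif1a. No gene of the companion lists was called in a comparison of KO with WT.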

How the data were processed

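The scans were extracted by the authors in Agilent Feature Extraction, version 10.5.1.1 per the file headers. The deposited intensity values are processed signals after background subtraction, raw mean signals and local background medians, not scaled between arrays. Flags of 0 or 1, an other unit in the deposited files, mark detected and outlying spots. A further deposited table gives log2 values of the same arrays, which matched the log2 processed signal minus a constant per array. The files place probes on mm9.

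The 8 arrays carried 41174 distinct probes without controls. Outlying spots were left out, log2 processed signals were reduced by the 75th percentile of each array, and a filter kept the 23739 probes that were well above background throughout at least 1 group. The probe with the highest mean signal stood for a gene. One mean per group was fitted over all 15401 genes with limma 3.58.1 (lmFit and eBayes, prior degrees of freedom 2.88, residual 4) in R 4.3.3, and 6 contrasts were tested, two-sided, with Benjamini-Hochberg adjustment and 95% intervals. The fit was tested on simulated data. Python with pandas 2.3.3 and matplotlib 3.10.9 made the promoter search and figures. With 2 arrays per group, the number of arrays limits the precision. A gene not well above background on any array of a group has its change given as a lower bound.

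Alternatives were normexp background correction, quantile normalization, the deposited table, 2 other filters, the median of a gene's probes, outlying spots kept, slide or replicate number as a block, single slides, and leaving out each array. All 40 members are named. Companion genes are named where called within a genotype or between genotypes, at most the 3 of largest averaged change per list. Egln3 is named beyond this rule, for the filter on dim signals. One gene that this rule would name is not reported here. The members and lists were chosen with earlier results of these data known. RefSeq protein sequences were not used here.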

Additional observations from a re-analysis of the deposited data

How the results depend on the processing

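All 41 calls of members in the LPS comparisons (13 in WT, 8 in KO and 20 averaged) kept their direction under every alternative that was run, and 11 kept the call in every one. These were Irg1, Aldoc and Idh2 in WT, Irg1 in KO, and Irg1, Aldoc, Eno2, Idh1, Idh2, Fh1 and Pfkfb4 averaged. With normexp on the raw signals the counts were 3 in WT, 2 in KO and 9 averaged, and with no filter on dim probes, which tests more genes, 8 and 5 within WT and KO. The cause of the lower counts under normexp was not tested. With slide as a block 7 were called in WT, within slide 1 5 in WT and within slide 2 1 in KO, fits with fewer samples or degrees of freedom. Quantile normalization gave 11 calls in KO (3 higher and 8 lower, against 3 and 5). The counts without 1 array were 3 to 12 in WT, 3 to 8 in KO and 15 to 17 averaged, and all alternatives other than these and the replicate block stayed within 1.5 times the counts above. The 3 comparisons of genotype had 0 calls under each alternative, 0 to 0 without 1 array. With normexp the median of the 40 between KO and WT moved to -0.78 after LPS and to -0.63 for the difference between responses. Replicate numbers do not pair the samples by the labels, and the correlations of deviations between groups ran from 0.0131 to 0.692. With replicate number as a block (replicate block), 18 members were called in WT, 14 in KO and 21 averaged, and 0 in the comparisons of genotype. Of the 5 members called in WT alone above, Pfkm and Pdk1 were then called in KO too, and Tkt, Taldo1 and Mdh1 were not. The median change of all genes moved by over 0.1 with no filter (to -0.355 in WT) with normexp (to 0.155 in KO) and with quantile normalization (to -0.0578 in KO), where the medians of the members were -0.266, -0.832 and -0.425. Signals near background limit Eno2 in unstimulated cells.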
